A study of Arabidopsis thaliana with 4 samples.

Results

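FACT and the NAP1 family are chaperones of the histone pair H2A-H2B, and 7 of their genes were followed here in Arabidopsis thaliana. SPT16 (AT4G10710) and SSRP1 (AT3G28730) encode the subunits of FACT. NAP1;1 (AT4G26110), NAP1;2 (AT2G19480) and NAP1;3 (AT5G56950) encode the NAP1 proteins, and NRP1 (AT1G74560) and NRP2 (AT1G18800) encode NAP1-related proteins. They were picked out by identifier from the 33476 annotations of the deposited table. The rule uses no measured value, but the group was chosen with earlier results of these data known. All 7 were found, and all 7 had a mean FPKM of at least 1 over the libraries and entered the test. In the text below the NAP1 genes are mostly given by their locus identifiers, as in the table.

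A nucleosome is built from a core of H3 and H4 flanked by dimers of H2A and H2B. FACT displaces and restores H2A-H2B dimers in front of and behind polymerases, and in plants it is found on transcribed genes. NAP1 and NRP proteins bind free H2A and H2B, carry them between cytoplasm and nucleus, and take part in nucleosome assembly and disassembly. In Arabidopsis, mutants in SSRP1 or SPT16 have defects in leaf growth and flowering, and plants lacking NRP1 and NRP2 have defects in the root meristem.

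The mRNA-Seq data comprised 4 libraries of poly-A RNA from plants in the Columbia background, all carrying a GFP-tagged histone H3 transgene under its own promoter. Dividing tissue was the meristem with younger leaves and non-dividing tissue was the oldest 4 to 6 leaves, both dissected from 4 week old short-day plants (8 h of light, 20 to 22°C) whose seeds had been kept cold at 4°C for 5 days. Each tissue was represented by 2 libraries, 1 from the HTR5-GFP line (tagged H3.3, replicate 1) and 1 from the HTR13-GFP line (tagged H3.1, replicate 2). No library came from untransformed plants. Because the libraries of a tissue came from different transgenic lines, the spread between them includes the difference between lines, and the p-values measure only that spread.

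FPKM scales the fragments of an annotation by its length and by the mapped fragments of the library, so levels can be set beside each other between genes. The FPKM of a library summed to between 700884 and 715002, and read depth per gene is unknown because the files hold no counts. Mapped reads, as the study lists them, were more numerous for both dividing libraries. These libraries also had fewer annotations listed at 0 (13084 and 13228 against 14102 and 14269). The part of this in the values below was not tested. All 6 markers of division and of the meristem were higher in dividing tissue. Their FPKM summed to 96.4 and 96.0 in the dividing libraries against 4.37 and 5.02 in the non-dividing ones, where the meristem gene STM was listed at 0 in both libraries. Of 4 genes of leaf ageing, SAG12 and SAG29 were listed at 0 in all libraries, and the sum rested on ERD1 (dividing 38.3 and 35.8, non-dividing 241 and 197). The 6 guard cell, phloem and floral markers summed to 58.1 and 52.0 in the dividing libraries against 155 and 156 in the non-dividing ones. Most of this came from the phloem gene SUC2. Of the others, KAT1 and APL were lower in dividing tissue, MYB60 overlapped between the tissues, and AP1 and AG were at or near 0. Both tissues are mixtures, so that fewer cells of a type and less RNA per cell cannot be told apart in any value below, and the part of these marker differences in the chaperone values was not tested.

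Across the tissues, transcripts of 5 of the 7 chaperone genes rose in dividing tissue, namely SSRP1, NAP1;1, NRP1, NRP2 and SPT16 in order of their change, and none fell (limma on log2(FPKM + 1), adjusted p under 0.05). Of all 17967 annotations tested, 51.7% were called higher in dividing tissue. The median log2 fold change of the 7 genes was 0.79, and that of all tested annotations was 0.38. NAP1;2 and NAP1;3 did not pass the threshold and lay below that general median. For all 7 genes both dividing libraries were above both non-dividing libraries, which was also true of 62.2% of the tested annotations, while 24.8% had both dividing libraries below.

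**Figure D1:**
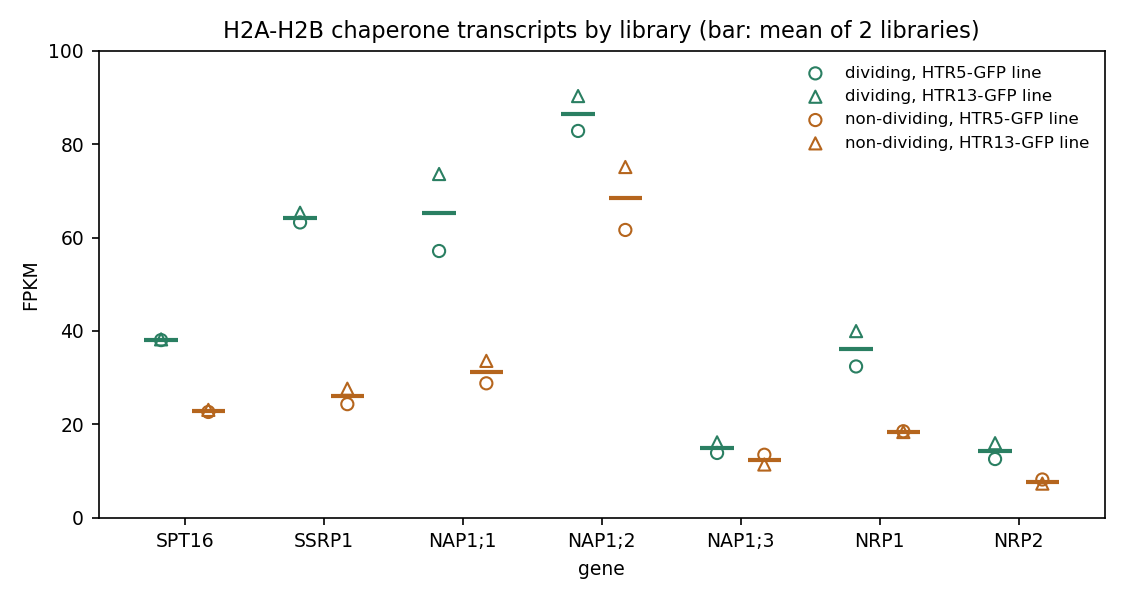
FPKM (y axis) of the 7 chaperone genes (x axis) in each of the 4 libraries. Green marks are dividing and brown marks non-dividing libraries, circles are the HTR5-GFP and triangles the HTR13-GFP line, and bars are means of 2 libraries. The green marks lie above the brown marks for every gene, with the widest gap for SSRP1 (means of 64.3 and 26.0) and the narrowest for NAP1;3 (15.0 and 12.5).

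Because the general median was above 0, FPKM was also rescaled, by dividing a library by the median, over annotations, of its ratio to the mean of all libraries. This brought the median of all annotations to 0.01 and turned the split of calls from 9282 higher and 3271 lower to 5502 higher and 5549 lower. Quantile normalization gave 5770 higher (32.1%) and 5243 lower (29.2%), and rescaling 30.7% and 30.9%. The same 5 chaperone genes remained called higher after rescaling and after quantile normalization. The median of the 7 genes was then 0.42 and 0.49.

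**Figure D2:**
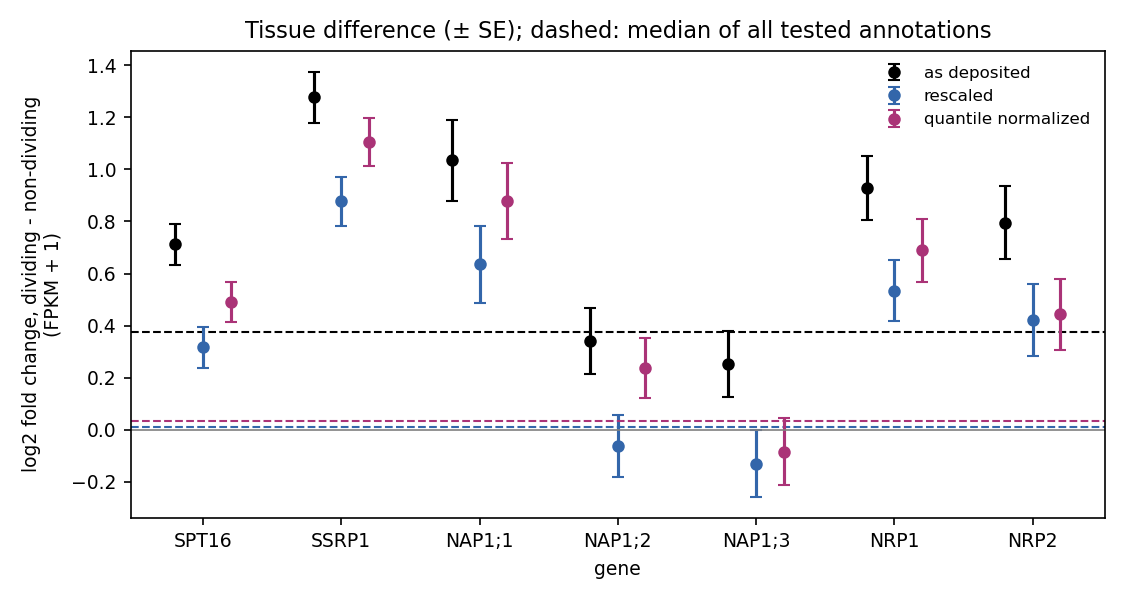
Log2 fold change of FPKM + 1, dividing minus non-dividing (y axis), of each chaperone gene (x axis) as deposited (black), rescaled (blue) and quantile normalized (magenta). Error bars are standard errors from limma on 2 libraries per tissue, and dashed lines are the medians of all tested annotations (0.38, 0.01 and 0.03). SSRP1, NAP1;1, NRP1, NRP2 and SPT16 stay above the median of their own scaling, and NAP1;3 falls below 0 in the other 2.

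SPT16, the large subunit of FACT, lies on chromosome 4 (6601989 to 6606354 in TAIR9, minus strand). Its FPKM was 38.1 and 38.2 in the dividing libraries against 22.7 and 23.1 in the non-dividing ones (the HTR5-GFP line first, here and below), and the dividing libraries differed less than for any other of the 7 genes. Its log2 fold change was 0.71 (standard error 0.08, limma adjusted p = 0.00142), a ratio of 1.67 (1.68 and 1.65 within the 2 lines). After rescaling the log2 fold change was 0.32 (limma adjusted p = 0.0199). RefSeq gives 3 transcripts for the gene. Of the 4125 stretches of 36 bases in the longest, 86 (2.08%) also occur elsewhere in TAIR10.1, 85 of them in the nearby gene GTC2 (AT4G10670), which was listed at 0 in all 4 libraries.

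SSRP1, the small subunit of FACT with a DNA-binding HMG box, lies on chromosome 3 (10784889 to 10788729 in TAIR9, plus strand). Its FPKM was 63.2 and 65.3 in the dividing libraries against 24.3 and 27.6 in the non-dividing ones, so that the tissues were far apart in both lines. The log2 fold change of 1.28 was the largest of the 7 genes (standard error 0.10, limma adjusted p = 5.51e-04), a ratio of 2.47 (2.60 and 2.36 within the 2 lines). It was 0.88 after rescaling (limma adjusted p = 0.00153). The end of SSRP1 overlaps by 32 bases the gene AT3G28740 on the other strand, which had 7.18 and 3.55 in the dividing libraries against 24.5 and 15.8 in the non-dividing ones. The library protocol, as described, has no step that marks strand, so reads in those 32 bases cannot be assigned.

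The ratio of the transcripts of the FACT subunits was higher in the dividing libraries. It was chosen after seeing the data and was not tested, and no protein was measured. In non-dividing tissue SSRP1 had 1.07 and 1.196 times the FPKM of SPT16, and in dividing tissue 1.66 and 1.71 times. The ratio of SSRP1 to SPT16 was 1.48 times as high in dividing as in non-dividing tissue (1.55 and 1.43 within the 2 lines), and between 1.41 and 1.57 when any 1 library was left out. The libraries of the 2 tissues did not overlap in this ratio, which no scaling of whole libraries can change. Lack of overlap is common in these data. Of single annotations, 62.2% had both dividing libraries above and 24.8% below both non-dividing ones. The share among ratios of 2 genes was not computed. With 2 libraries against 2, an exact two-sided permutation test cannot give a p below 0.333. Summed over both subunits, FPKM was 101.3 and 103.5 in the dividing libraries against 47.0 and 50.8 in the non-dividing ones, a ratio of 2.10.

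The 250 bases before the RefSeq start of each gene (TAIR10.1, 5′ to 3′) were searched on both strands for E2F sites, telo-boxes and site II elements, motifs known from genes of proliferating plant cells. The subunits of FACT are shown because both rose and their windows differ in motif content. Capitals mark the matches. The SPT16 window is chr4:6606358-6606607 (minus strand) and the SSRP1 window is chr3:10784638-10784887 (plus strand).
SPT16: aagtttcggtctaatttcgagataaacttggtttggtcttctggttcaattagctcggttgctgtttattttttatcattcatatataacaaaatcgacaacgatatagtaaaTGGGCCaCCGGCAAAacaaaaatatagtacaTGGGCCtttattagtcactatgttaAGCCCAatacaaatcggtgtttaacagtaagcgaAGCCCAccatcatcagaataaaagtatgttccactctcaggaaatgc
SSRP1: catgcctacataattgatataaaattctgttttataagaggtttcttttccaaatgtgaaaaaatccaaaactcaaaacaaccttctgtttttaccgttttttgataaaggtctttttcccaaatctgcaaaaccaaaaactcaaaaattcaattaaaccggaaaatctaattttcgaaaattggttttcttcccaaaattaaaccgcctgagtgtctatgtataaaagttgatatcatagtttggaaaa
The SPT16 window held 4 site II elements (TGGGCC or TGGGCT) and an E2F match on the strand opposite the gene, between 130 and 123 bases before the start. The E2F search covered TTTCCCGC, TTTCCCGG, TTTCGCGC, TTTCGCGG, TTTGCCGC, TTTGCCGG, TTTGGCGC and TTTGGCGG, and the SPT16 match is TTTGCCGG. The SSRP1 window held none of the motifs searched. Windows of the same length held an E2F match in 2.8%, a site II element in 19.2% and the telo-box AAACCCTA in 4.49% of 27443 protein-coding genes. Among the 7 chaperone genes E2F and site II matches occurred in SPT16 alone. A match is a description of letters and not a measured site.

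NAP1;1 (AT4G26110) lies on chromosome 4 (13232595 to 13235879 in TAIR9). Its FPKM was 57.1 and 73.6 in the dividing libraries against 28.8 and 33.6 in the non-dividing ones, higher in the HTR13-GFP line in both tissues but without overlap between tissues. On the log2 scale the change was 1.04 (standard error 0.16, limma adjusted p = 0.00345), a ratio of 2.10 (1.98 and 2.19 within the 2 lines), and 0.64 after rescaling (limma adjusted p = 0.0171).

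NAP1;2 (AT2G19480) lies on chromosome 2 (8438456 to 8441348 in TAIR9) and had the highest level of the 7 genes in every library. Its FPKM was 82.8 and 90.3 in the dividing libraries against 61.6 and 75.1 in the non-dividing ones, and the nearest libraries of the tissues were those at 82.8 and 75.1. The change of 0.34 on the log2 scale (standard error 0.13) did not pass the threshold (limma adjusted p = 0.0606). With the replicate number, that is the line, as a block it did (limma adjusted p = 0.0212), and 6 of the 7 genes were then called higher, against 54.1% of all annotations. It also passed without non-dividing replicate 2 (limma adjusted p = 0.0229). After rescaling the log2 fold change was -0.06 (limma adjusted p = 0.670), and after quantile normalization it was 0.24 (limma adjusted p = 0.136).

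NAP1;3 (AT5G56950) lies on chromosome 5 (23032449 to 23035661 in TAIR9) and was the lowest of the 3 NAP1 genes followed. Its FPKM was 13.9 and 16.2 in the dividing libraries against 13.5 and 11.4 in the non-dividing ones, so that in the HTR5-GFP line the tissues were nearly level (ratio 1.03) and in the HTR13-GFP line they were not (ratio 1.42). The difference between the lines was not tested. The log2 fold change was 0.25 (standard error 0.13, limma adjusted p = 0.133), and it was below 0 after rescaling (-0.13, limma adjusted p = 0.412) and quantile normalization (-0.08, limma adjusted p = 0.593). The remaining NAP1 gene of Arabidopsis, AT3G13782, had 0.702 and 0.646 in the dividing libraries against 0.682 and 1.01 in the non-dividing ones and was below the filter.

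By share of summed FPKM, the make-up of the NAP1 family differed between the libraries of the 2 tissues. These shares are a description and were not tested, and lack of overlap is common in these data. AT4G26110 held 37.1 and 40.9% of the summed FPKM of the 3 NAP1 genes in the dividing libraries against 27.7 and 28.0% in the non-dividing ones, a difference of 11.2 percentage points (9.42 and 12.9 within the 2 lines). AT2G19480 held 53.8 and 50.1% and 59.3 and 62.5%, so that it led the family in each library. AT5G56950 held 9.03 and 8.98% and 12.997 and 9.50%. The summed FPKM of the family was 154 and 180 in the dividing libraries against 104 and 120 in the non-dividing ones, a ratio of 1.49.

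**Figure D3:**
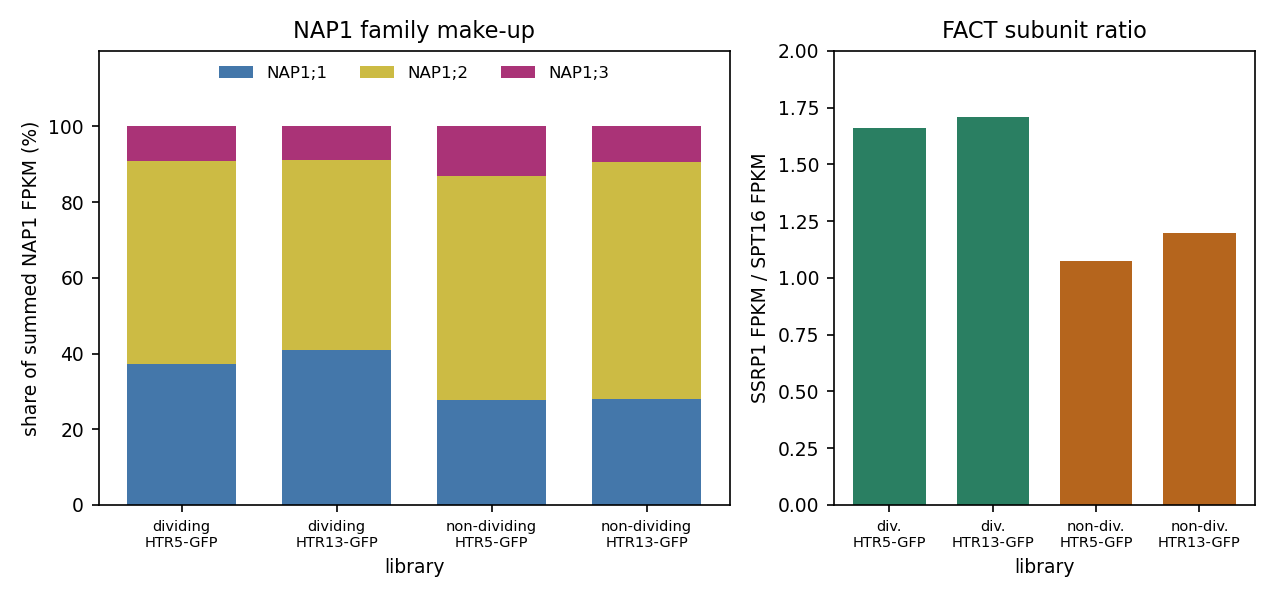
Left, share of the summed NAP1 FPKM (y axis, %) held by NAP1;1 (blue), NAP1;2 (yellow) and NAP1;3 (magenta) in each of the 4 libraries (x axis). Right, FPKM of SSRP1 divided by that of SPT16 (y axis) in the same libraries, green for dividing and brown for non-dividing tissue. NAP1;1 takes 37.1 and 40.9% in dividing against 27.7 and 28.0% in non-dividing tissue, and the subunit ratio is 1.66 and 1.71 against 1.07 and 1.196.

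The NAP1 genes are paralogs, and it matters for these shares whether reads can be told apart. Their coding sequences in TAIR10.1 were identical at 86.4% of aligned bases for AT4G26110 and AT5G56950, at 77.7% for AT2G19480 and AT5G56950 and at 77% for AT4G26110 and AT2G19480. The longest run shared by AT4G26110 and AT5G56950 in this alignment was 30 bases. It is shown with 30 bases on each side, AT4G26110 from chr4:13234715-13234804 and AT5G56950 from chr5:23034546-23034635 (both on the plus strand, each within 1 exon), with the 14 positions that differ in capitals.
NAP1;1: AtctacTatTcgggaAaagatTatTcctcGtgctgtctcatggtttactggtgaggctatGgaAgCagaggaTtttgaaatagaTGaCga
NAP1;3: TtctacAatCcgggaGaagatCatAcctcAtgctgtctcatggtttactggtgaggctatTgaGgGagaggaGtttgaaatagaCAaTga
No stretch of 36 bases in the longest transcript of any NAP1 or NRP gene, or of SSRP1, occurred at another place in the genome. Only exact matches were counted. Whether reads mapped with mismatches can be told apart between the paralogs was therefore not tested. The length of 36 bases was chosen here, since the read length is not given in the sources used here.

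NRP1, which lies on chromosome 1 (28017584 to 28020049 in TAIR9, minus strand), was the more abundant NAP1-related gene. Its FPKM was 32.4 and 40.0 in the dividing libraries against 18.5 and 18.4 in the non-dividing ones, close together in the oldest leaves and apart in dividing tissue. The rise on the log2 scale was 0.93 (standard error 0.12, limma adjusted p = 0.00235), a ratio of 1.96 (1.75 and 2.18 within the 2 lines), and 0.53 after rescaling (limma adjusted p = 0.0144). The gene overlaps by 128 bases AT1G74550 on the other strand, which stood at or below 0.133 in all 4 libraries. Its upstream window (chr1:28020060-28020309 in TAIR10.1, minus strand) was the only one of the 7 with a telo-box, in capitals, between 19 and 12 bases before the start.
NRP1 upstream: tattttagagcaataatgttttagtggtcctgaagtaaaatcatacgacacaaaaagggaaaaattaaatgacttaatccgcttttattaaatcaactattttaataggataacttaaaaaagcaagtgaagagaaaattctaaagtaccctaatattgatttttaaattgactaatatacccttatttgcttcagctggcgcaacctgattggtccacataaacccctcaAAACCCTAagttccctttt

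NRP2, on the same chromosome (6481113 to 6483596 in TAIR9, minus strand), had the lowest mean level of the 7 genes in both tissues. Its FPKM was 12.6 and 15.98 in the dividing libraries against 8.21 and 7.33 in the non-dividing ones. The log2 fold change was 0.79 (standard error 0.14, limma adjusted p = 0.00581), a ratio of 1.84 (1.53 and 2.18 within the 2 lines), and 0.42 after rescaling (limma adjusted p = 0.0474). It no longer passed without the HTR13-GFP library of dividing tissue (log2 fold change 0.63, limma adjusted p = 0.0508), when 4 of the 7 genes were called higher, against 32.6% of all annotations in the same fit.

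NRP1 exceeded NRP2 by a similar factor in every library, 2.57 and 2.50 in the dividing libraries against 2.26 and 2.51 in the non-dividing ones, with overlap between the tissues. Their summed FPKM was 45.0 and 56.0 in the dividing libraries against 26.7 and 25.7 in the non-dividing ones, a ratio of 1.93. The coding sequences were identical at 83.2% of aligned bases, with a longest shared run of 35 bases. That run is shown with its neighbouring bases because it is the longest coding run the pair shares. The stretch covers coding bases 304 to 398 of NRP1 and 292 to 386 of NRP2 and spans an exon junction in both, and capitals mark the 18 positions that differ.
NRP1: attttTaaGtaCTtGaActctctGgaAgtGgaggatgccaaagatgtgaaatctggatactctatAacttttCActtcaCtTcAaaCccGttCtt
NRP2: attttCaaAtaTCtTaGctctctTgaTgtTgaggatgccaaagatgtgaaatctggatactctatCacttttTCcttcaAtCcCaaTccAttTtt

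The order of the levels was the same by mean in both tissues: AT2G19480, AT4G26110, SSRP1, SPT16, NRP1, AT5G56950, NRP2. In non-dividing tissue no neighbours in this order overlapped between libraries. In dividing tissue the ranges overlapped for AT4G26110 and SSRP1, for SPT16 and NRP1, and for AT5G56950 and NRP2. Within each line AT5G56950 was above NRP2 there (13.9 against 12.6 and 16.2 against 15.98). In the other overlapping pairs the order differed between the lines. Differences between genes were not tested. Among 17493 protein-coding genes with a mean FPKM of at least 1, the level of AT2G19480 stood above 92.8% of genes in dividing and 91.3% in non-dividing tissue. SSRP1 moved from above 76.6% of genes in non-dividing to above 89.8% in dividing tissue, and NRP2 from above 43.2% to above 54.1%, while AT5G56950 went the other way, from above 57.6% to above 55.7%.

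In dividing tissue the log2 ratio of HTR13-GFP to HTR5-GFP was 0.36 for AT4G26110, 0.32 for NRP2 and 0.29 for NRP1, while the middle 90% of all tested annotations lay between -0.33 and 0.35 around a median of 0.02. In non-dividing tissue the same ratio was 0.22, -0.15 and -0.01. For the FACT subunits it was 0.01 and 0.03 for SPT16 and 0.05 and 0.18 for SSRP1, dividing tissue first. These ratios rest on single libraries and have no replicate check.

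The substrates of the chaperones were counted from a fixed list of 24 H2A and H2B genes. Of 13 H2A genes 11 rose and none fell, and of 9 tested H2B genes 6 rose and 1 fell, HTB3, where 51.7% of all annotations rose and 18.2% fell. After rescaling the counts were 9 higher and 2 lower for H2A and 5 higher and 2 lower for H2B, against 30.7% and 30.9% of all annotations. With the block 1 H2A gene, HTA12, was also called lower, against 20.2% of all annotations. HTA11, HTA8 and HTA6 had log2 fold changes of 2.26, 2.20 and 1.95 (limma adjusted p = 2.58e-04, 2.70e-04 and 3.05e-04). HTA4 had -0.09 (limma adjusted p = 0.391) and was called lower after rescaling (-0.47, limma adjusted p = 0.0103). HTB2, HTB1 and HTB9 had 1.98, 1.11 and 1.11 (limma adjusted p = 2.69e-04, 6.30e-04 and 0.00119), and HTB5 had 0.03 (limma adjusted p = 0.789) but was lower in dividing tissue after rescaling (-0.36, limma adjusted p = 0.0376). Summed FPKM of the 24 genes was 1287 and 1261 in the dividing libraries against 696 and 654 in the non-dividing ones. The largest part came from HTA9, with 379 and 359 against 203 and 215. The sum of the 24 genes was 4.29 and 3.71 times that of the 7 chaperones in dividing and 3.92 and 3.33 times in non-dividing tissue. The ranges of the tissues overlap, but within each line the value was higher in dividing tissue, and the inverse ratio, chaperones over histones, was 0.914 and 0.896 times as high there as in non-dividing tissue. That ratio was between 0.835 and 0.984 when any 1 library was left out and was not tested.

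Other genes that act on nucleosomes or with FACT were taken from fixed lists, to be read against the 51.7% of all annotations called higher as deposited and 30.7% after rescaling. All 9 H3-H4 chaperones tested were called higher as deposited, and 3 after rescaling, close to the general share, with a median log2 fold change of 0.49 and 0.19. FAS2, a subunit of the assembly factor CAF-1, had 1.89, ASF1B 1.64, NASP 0.95 and ASF1A 0.26, the last of which turned to -0.12 after rescaling (limma adjusted p = 3.51e-04, 9.62e-04, 8.18e-04 and 0.0449 as deposited). The call of ASF1A was also lost when any 1 library was left out (limma adjusted p 0.0615 to 0.209) and without the trend (0.0548). Of 10 SWR1 and INO80 remodelling genes, whose complexes exchange H2A-H2B dimers, 9 were called higher as deposited and 3 after rescaling, again close to the general share (median 0.51 and 0.13). The actin-related ARP4 had 1.32, the ATPase INO80 1.19 and YAF9A 0.75 (limma adjusted p = 0.00181, 5.70e-04 and 0.00837), and YAF9A did not pass after rescaling (0.39, limma adjusted p = 0.0792) or without dividing replicate 1 or 2 (limma adjusted p = 0.0808 and 0.0856). Rescaled with the block, YAF9A passed (limma adjusted p = 0.0312). SWC4 had -0.23 (limma adjusted p = 0.0509) and was called lower after rescaling (-0.62, limma adjusted p = 0.00254).

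Transcript elongation factors, with which FACT travels on genes, gave 10 of 11 tested genes higher as deposited (51.7% of all annotations) and 5 after rescaling (30.7%), with medians of 0.61 and 0.24. VIP3, of the PAF1 complex, had 0.90, SPT4-1 0.84 and TFIIS, which helps stalled polymerase, 0.77 (limma adjusted p = 0.00109, 0.00200 and 0.00168). IWS1 had 0.23 (limma adjusted p = 0.156) and -0.17 after rescaling, and passed without non-dividing replicate 2 (0.38, limma adjusted p = 0.0270). SPT5-1 was listed at 0 in all 4 libraries. Of 8 other HMG-box proteins 4 rose and 1, HMGB3, fell (log2 fold change -0.42, limma adjusted p = 0.0171), and after rescaling 3 were higher and 2 lower. These counts are near the shares of all annotations, 51.7% higher and 18.2% lower as deposited and 30.7% and 30.9% after rescaling. With the block HMGB5 was also called higher (limma adjusted p = 0.0389), which made 5 of the 8, against 54.1% of all annotations. 3xHMG-box2 had 4.08, 3xHMG-box1 2.32 and HMGB6 1.29 (limma adjusted p = 1.16e-04, 3.51e-04 and 4.34e-04), and HMGB2, with the largest adjusted p of the list, had -0.23 (limma adjusted p = 0.122) and was called lower after rescaling (-0.64, limma adjusted p = 0.00777). SSRP1, which shares the HMG box, lay within this range. By their medians the lists stood between 0.49 and 1.02 as deposited, with the 7 chaperones at 0.79, and no list was tested against another.

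**Figure D4:**
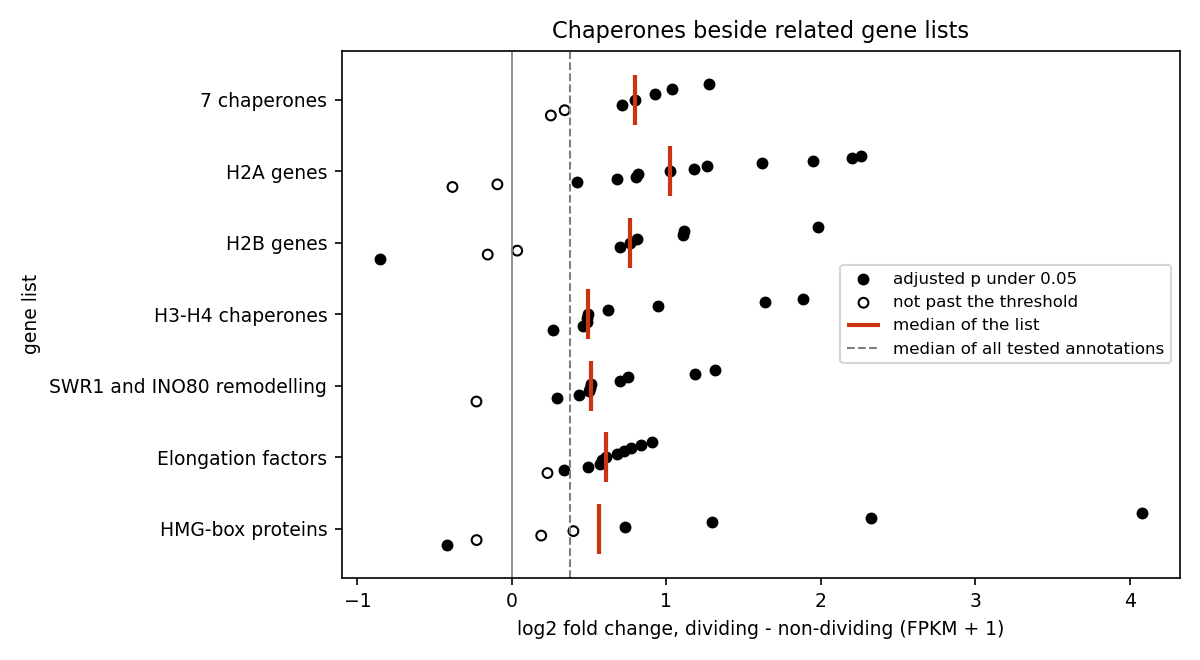
Log2 fold change of FPKM + 1, dividing minus non-dividing (x axis), of every tested gene in the chaperone group and related lists (y axis). Filled points have a limma adjusted p under 0.05, open points do not, red bars are list medians and the dashed line is the median of all tested annotations (0.38). The 7 chaperones spread from 0.25 to 1.28, and the HMG-box proteins from -0.42 to 4.08.

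The genes whose values over the 4 libraries were most like those of each chaperone, by the Euclidean distance of centred log2(FPKM + 1), were ALDH10A9 for SPT16 (distance 0.015), PRP40C for SSRP1 (0.017), AT4G25890 for AT4G26110 (0.014), PEPR1 for AT2G19480 (0.015), AT5G47060 for AT5G56950 (0.031), AT2G27740 for NRP1 (0.049) and AT5G64970 for NRP2 (0.016). With 4 libraries such likeness is common. Adding 1 also shrinks the changes of low genes. AT2G27740 had FPKM of 1.76 and 2.31 in the dividing libraries against 0.599 and 0.529 in the non-dividing ones. AT5G64970 had 2.20 and 2.94 against 1.14 and 0.938. Of 17492 protein-coding genes compared, 407 lay within a distance of 0.1 of SPT16, 127 of AT2G19480, 112 of SSRP1, 64 of NRP1, 53 of AT5G56950, 31 of NRP2 and 30 of AT4G26110. No chaperone gene was the nearest to another.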

How the data were processed

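mRNA-Seq of 4 libraries was analysed, 2 per tissue. The authors mapped reads onto TAIR9 with TopHat 1.2.0, Bowtie 0.12.7 and SAMtools 0.1.13, and deposited the FPKM that Cufflinks 0.9.3 gave for each annotation and library. No count table was used, and depth per gene is unknown. Samples were grouped by the titles of the GEO labels. Tissues were compared with limma 3.58.1 in R 4.3.3 (lmFit, eBayes with trend) on log2(FPKM + 1). Annotations entered if their FPKM averaged 1 or more (17967), p-values were two-sided and adjusted over all of these by Benjamini and Hochberg, and the threshold was 0.05. A fold change on this scale understates that of low genes. Sums, shares and figures used Python 3.11.15, pandas 2.3.3 and matplotlib 3.10.9, and coding sequences were aligned with Biopython 1.88. No column of the authors' own comparisons was present.

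Replicate numbers coincide with the transgenic line, so same-numbered libraries are paired by line: their deviations from the tissue means had a Pearson correlation of 0.257. The fit without a block is reported, and the block where it changes a call.

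The 7 genes and the lists were chosen with earlier results of these data known. Named from each list are the 3 genes of largest change that passed the threshold and moved the same way in each line, and the gene with the largest adjusted p. HTB3, HTA9, HTA12, HMGB3, HMGB5, SPT5-1 and GTC2 were named after their values were seen. For 27443 protein-coding genes, sequences came from RefSeq (TAIR10.1). Of 26579 genes in both annotations, none had both ends shifted by the same non-zero distance. However, only 8448 had the same lower and 8361 the same upper coordinate. An upstream window can therefore begin away from the end of the TAIR9 gene. TAIR9 positions are given for genes and TAIR10.1 positions for sequences. The fit was first tested on simulated data of 17967 genes, 200 of them changed. It recovered 40% of the changes of log2 size 1 and 79% of those of size 2, with 2 false calls. Far fewer genes changed in the simulation than were called in the data, and its spreads were shuffled between genes. Alternatives covered pseudocount, filter, block, rescaling, quantile normalization, the trend and leaving out each library.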

Additional observations from a re-analysis of the deposited data

Results flagged for a closer look

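The share of NRP1 in the summed NRP FPKM was higher in dividing tissue in the HTR5-GFP line and nearly level in the HTR13-GFP line. Dividing minus non-dividing tissue, it was 2.72 percentage points for HTR5-GFP plants and -0.0521 for HTR13-GFP plants, and that of NRP2 was accordingly -2.72 and 0.0521. The log2 ratio of dividing to non-dividing tissue of the H2B gene HTB5 was -0.12 for HTR5-GFP plants and 0.18 for HTR13-GFP plants. The differences between the lines were not tested, since a line had 1 library per tissue.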

How the results depend on the processing

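SPT16, SSRP1, NAP1;1 and NRP1 kept their direction and passed the threshold under every alternative run, with adjusted p between 8.35e-05 and 0.0352. The call of NRP2 was lost without dividing replicate 2 (log2 fold change 0.63, and 0.63 to 0.96 over the libraries left out). NAP1;2 passed with the replicate block (0.34) and without non-dividing replicate 2 (0.48, and 0.20 to 0.48 over the libraries left out), and was -0.063 rescaled, with or without the block. NAP1;3 was -0.13 rescaled, with or without the block, and -0.085 after quantile normalization. On the same alternatives HTB5 was -0.36 and -0.23, and ASF1A -0.12 and -0.065, while IWS1 was -0.17 rescaled. HTB5 was also -0.064 without non-dividing replicate 2 and -0.018 without dividing replicate 2, and reached 0.13 with another library left out. The cause of these changes was not tested.

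Rescaled, rescaled with the block and quantile normalized, all annotations gave 5502, 5922 and 5770 higher and 5549, 5995 and 5243 lower. In the same order H3-H4 chaperones gave 3, 3 and 4 higher, SWR1 and INO80 genes 3, 4 and 2 higher and 1, 1 and 1 lower, and H2A, H2B and HMG-box genes 2 lower each time. Elongation factors gave 5 higher under both rescaled fits and 7 of 11 after quantile normalization, where 32.1% of all annotations were higher. With the block, or a mean FPKM of at least 5, 1 H2A gene was lower. With a pseudocount of 0.1, or no filter, 0 H2B genes and 1 SWR1 or INO80 gene were lower. Rescaled ratios of summed FPKM were 1.58 for FACT, 1.12 for NAP1 and 1.45 for NRP.

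Leaving out 1 library gave 5786 to 8795 higher and 2012 to 3037 lower annotations, with 6161 and 2066 without dividing replicate 1 and 5786 and 2012 without dividing replicate 2. It gave 4 to 8 H3-H4 chaperones, 3 to 8 SWR1 and INO80 genes and 6 to 11 elongation factors higher, and 0 to 1 H2A, 0 to 2 H2B and 0 to 1 HMG-box genes lower. The lowest counts of higher genes came without dividing replicate 2, and for H3-H4 chaperones also without dividing replicate 1. HTB3 and HMGB3 lost their calls without either dividing library, and HMGB3 also without non-dividing replicate 1. The ratios were 2.02 to 2.18 for FACT, 1.37 to 1.61 for NAP1, and 0.835 to 0.984 for the chaperones over H2A and H2B, of which the last was chosen after seeing the data, as was the ratio of SSRP1 to SPT16. With 1 library left in a tissue, it is assumed to vary like those of the other. Precision is limited by 2 libraries per tissue and an unknown depth per gene.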
